A study of Mus musculus with 9 samples.

Results

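The clustered Hox genes and the related homeobox genes Msx1 and Msx2 were read in whole mouse uteri on gestation day (GD) 3.5, shortly before the embryo attaches. Of 40 such genes listed by name, 35 had a probe set, a group of short array probes, that the platform annotation assigns to that gene alone, out of 18193 genes read this way. They were 9 Hoxa, 9 Hoxb, 7 Hoxc and 8 Hoxd genes and both Msx genes, each represented by whichever of its probe sets was brightest on average over the 9 arrays. Hoxa6, Hoxb8, Hoxc11, Hoxc12 and Hoxd4 had no probe set of their own. The arrays came in 3 groups of 3. The control mice carried floxed Mig-6, alone (Mig-6 f/f) or with floxed Erbb2 (Mig-6 f/f Erbb2 f/f), and the sources used here do not say which control array is which. The double mutant (Mig-6 d/d Erbb2 d/d) lacked Mig-6 and Erbb2 and the single mutant (Mig-6 d/d) lacked Mig-6 alone, in both cases where Pgr cre/+ is active, that is in cells that express the progesterone receptor, in epithelium, stroma and muscle alike. The control genotypes are given without Pgr cre/+, so this allele and the loss of Mig-6 cannot be told apart against control. All mice were of mixed C57BL/6 and 129P2/OlaHsd background and had been mated with C57BL/6 males. The methods describe adult mice, whereas the sample labels give 2 weeks of age. Several mice of a genotype were pooled for RNA. Whether a group's 3 arrays held separate pools is not stated, so the p-values may reflect technical spread alone.

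Hox genes encode transcription factors that bind DNA through a homeodomain. They lie in clusters, named a to d, in which the order of the genes follows the order in which they are used along the body axis, and the genes of the posterior end of the clusters pattern the female reproductive tract. Hoxa9, Hoxa10, Hoxa11 and Hoxa13 are known for the oviduct, the uterus, the lower uterus with the cervix and the vagina, in that order. In the adult uterus Hoxa10 and Hoxa11 are expressed in the stroma, respond to progesterone and are needed for implantation and decidualization. Msx1 and Msx2 are expressed mainly in the uterine epithelium before implantation and are needed for the uterus to become receptive. Mig-6, whose gene symbol is Errfi1, encodes a progesterone-induced adaptor that restrains ERBB receptors, and Erbb2 encodes one of these receptors.

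The start regions of Hoxa9 and Hoxd9, both called, and of the progesterone-responsive Hoxa11, not called, are shown. They let a reader compare base composition and estrogen receptor elements in genes whose log2 fold changes in the single mutant had the same sign. Each runs from 250 bases before to 50 bases after the transcript's start in RefSeq (build GRCm38.p6), 5′ to 3′ on the gene's strand. Capitals mark GGTCA, the core element bound by the estrogen receptor, searched on both strands, so that the capitals read TGACC where the match is on the other strand. The Hoxa9 region lies at chr6:52227321-52227620 (minus strand), the Hoxa11 region at chr6:52245761-52246060 (minus strand) and the Hoxd9 region at chr2:74697513-74697812 (plus strand).
Hoxa9: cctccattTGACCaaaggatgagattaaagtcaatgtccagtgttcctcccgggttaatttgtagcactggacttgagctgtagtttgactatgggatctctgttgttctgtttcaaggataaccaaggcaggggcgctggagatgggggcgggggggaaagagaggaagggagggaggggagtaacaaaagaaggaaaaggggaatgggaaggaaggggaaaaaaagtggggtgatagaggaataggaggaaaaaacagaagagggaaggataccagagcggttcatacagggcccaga
Hoxa11: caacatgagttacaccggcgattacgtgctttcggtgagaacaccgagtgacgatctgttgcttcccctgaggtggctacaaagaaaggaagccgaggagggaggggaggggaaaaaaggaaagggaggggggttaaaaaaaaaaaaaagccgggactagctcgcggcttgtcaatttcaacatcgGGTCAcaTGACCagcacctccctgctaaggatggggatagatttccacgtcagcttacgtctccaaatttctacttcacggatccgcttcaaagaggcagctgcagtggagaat
Hoxd9: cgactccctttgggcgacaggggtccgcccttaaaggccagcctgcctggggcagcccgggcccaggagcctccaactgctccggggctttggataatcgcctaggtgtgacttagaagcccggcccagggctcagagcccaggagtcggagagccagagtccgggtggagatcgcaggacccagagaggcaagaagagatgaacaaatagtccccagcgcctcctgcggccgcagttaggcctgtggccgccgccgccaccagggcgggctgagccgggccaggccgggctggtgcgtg
The Hoxa9 region held 4 CG pairs at 49.7% G and C, near the median of 52.7% over all 32851 start regions in the table, whose median CG count was 7. The Hoxd9 region was far richer, with 20 CG pairs at 68.3% G and C, and it held no GGTCA. Hoxa9 had 1 GGTCA, and the Hoxa11 region, with 15 CG pairs, had 2 that face each other 2 bases apart. Only the core GGTCA was searched, not a full estrogen receptor element or its spacing. The table held 23 start regions of 21 members. GGTCA was found in 12 of these 23 (52.2%) and in 40.5% of all start regions. TTTAT, the core bound by posterior HOX proteins, searched on both strands and able to share at most 1 letter with GGTCA, was in 8 of 23 (34.8%) and in 40% of all. A match is a run of letters and no evidence of binding. Hoxb2 and Hoxb6 had no entry.

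Intensities were deposited on a linear scale for 45037 probe sets, and the array medians were 7.87 to 8.24. Log2 fold changes are differences between mean log2 intensities. A gene was called higher or lower where limma, fitted to all 9 arrays together, gave a p under 0.05 after Benjamini-Hochberg adjustment across the whole table and the change exceeded 1.5-fold. Only called genes are said to rise or fall. Errfi1 checks the labels. Its brighter probe set read 454.01, 564.48 and 286.04 in control and 76.05, 29.83 and 40.34 in the double mutant. The libraries labelled Mig-6 d/d read 15.13, 15.96 and 254.61, which puts the library labelled Mig-6 d/d 3 close to control. Erbb2 read 29.39 to 45.73 in control, 39.51 to 46.55 in the single mutant and 9.88 to 18.45 in the double mutant, without overlap of the last with the others. The other Errfi1 probe set read 33.70 to 65.13 in control, 12.81 to 20.69 in the double mutant and 11.15, 10.01 and 37.01 in the single mutant, where the last value, that of the same library, lay within the control range and the other two below it. The Errfi1 reading of the library labelled Mig-6 d/d 3 thus goes against its label, and every direction given for the single mutant includes it unless it is left out. The summed intensity of epithelium markers on this library was 12505.9. It was 10932.7 and 8114.04 on the others of this label, and at most 5567.7 in control. Leaving out the library labelled Mig-6 d/d 3, no member was called in the single mutant against control and 1 was called, higher, in the double mutant against the single mutant. In the single mutant against control, none was called without control replicate 2 or the library labelled Mig-6 d/d 1 either.

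With all arrays, 1 of the 35 members rose in the single mutant against control (Hoxb6), where 2.54% of all genes did, and 2 fell (Hoxa9 and Hoxd9), where 1.80% did. From the single mutant to the double mutant 2 members rose (Hoxa9 and Hoxd9), where 3.73% of all genes did, and 2 fell (Hoxb2 and Hoxb6), where 3.75% did. These counts are small and no test sets them apart from the shares over all genes. Of the 35, 20 had a mean at or above the median intensity of 8.07 and 15 a mean below it. All calls were among the 20. Over all 35 members the median log2 fold change in the single mutant was -0.13, with 13 above 0 and 22 below. Over all genes the median was -0.03, with 44.8% above 0. Both comparisons use the same single-mutant arrays, so a gene high or low on those arrays moves in both.

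**Figure D1:**
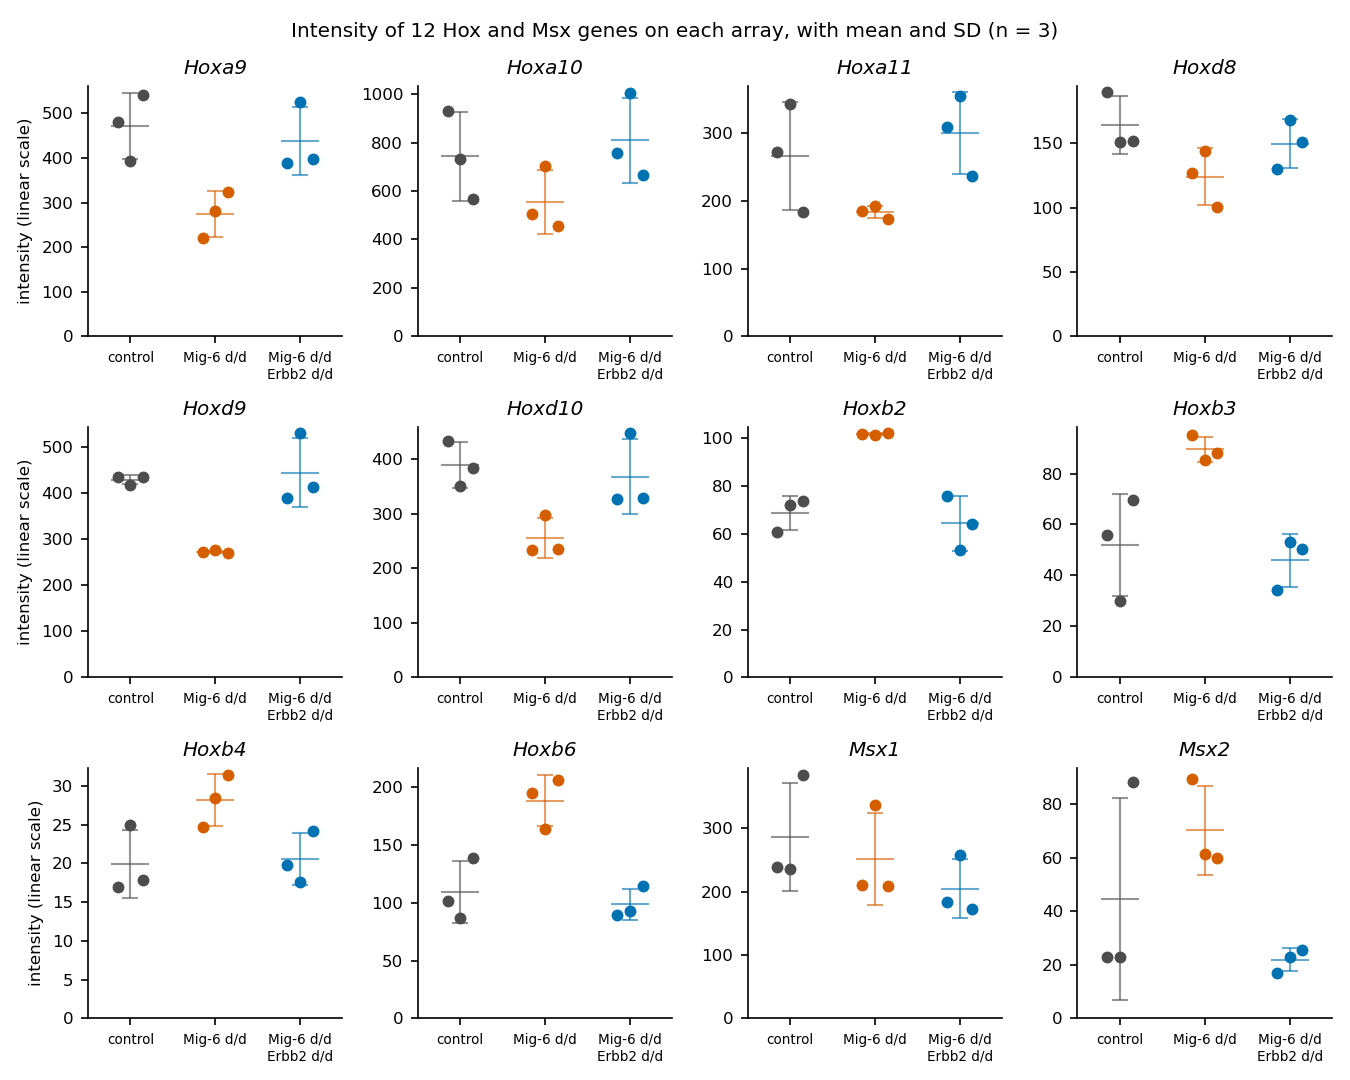
Intensity (linear scale, y axis from 0) of 12 Hox and Msx genes on each of the 9 arrays by group (x axis, with Mig-6 d/d for the single mutant, and both alleles for the double mutant), where points are arrays and bars the mean and SD of 3. The single-mutant points of Hoxa9, Hoxd9 and Hoxd10 lie below all points of both other groups, and those of Hoxb2, Hoxb3 and Hoxb6 above them.

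Of the 9 measured genes of the Hoxa cluster on chromosome 6, only Hoxa9, a posterior gene, was called in the single mutant. Hoxa9 read 479.99, 393.18 and 540.31 in control, 220.95, 280.10 and 323.64 in the single mutant and 389.60, 526.55 and 398.51 in the double mutant. All 3 single-mutant arrays lay below the lowest array of either other group. Hoxa9 fell by 0.78 on the log2 scale in the single mutant (SE 0.18, adjusted p = 0.0422, limma), a 1.72-fold decrease, and rose by 0.68 from there to the double mutant (adjusted p = 0.0493, limma). In the double mutant against control its log2 fold change was -0.11 (95% interval -0.50 to 0.29). In bulk tissue, fewer cells that express a gene and less RNA per cell cannot be told apart. The calls of Hoxa9 stand close to the threshold. In the single mutant against control the call was lost without any 1 control or single-mutant array and without double-mutant replicate 1 or 3, at log2 fold changes of -0.91 to -0.63 and adjusted p of 0.0581 to 0.129 (limma). From the single mutant to the double mutant it was lost without control replicate 1 and without any 1 array of these 2 groups, at 0.53 to 0.80 and adjusted p of 0.0529 to 0.163 (limma).

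A further probe set of Hoxa9 gave a steadier reading. It read 59.28, 73.25 and 76.34 in control, 33.85, 36.63 and 37.50 in the single mutant and 51.96, 51.23 and 45.82 in the double mutant. The groups did not overlap, and the double-mutant arrays lay between those of control and the single mutant. Hoxa9 fell by 0.94 at this probe set (adjusted p = 0.00819, limma), was called in 20 of 21 alternatives, and differed by -0.48 between the double mutant and control (95% interval -0.74 to -0.22, adjusted p = 0.186, limma). From the single mutant to the double mutant the difference was 0.46 (adjusted p = 0.0413, limma), under the fold limit.

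Hoxa10, whose product is a regulator of stromal progesterone responses, read 932.84, 732.20 and 565.68 in control, 503.90, 704.43 and 454.96 in the single mutant and 755.81, 1005.01 and 668.03 in the double mutant. The control and single-mutant arrays overlapped, and neither difference was called. The log2 fold change was -0.42 in the single mutant (95% interval -0.92 to 0.08, adjusted p = 0.373, limma) and 0.13 in the double mutant (-0.37 to 0.63), so that neither interval leaves out a change of 1.5-fold. Its other probe set, near the median intensity in the single mutant, read 26.20, 13.05 and 15.00 in control, 9.65, 8.12 and 8.73 in the single mutant and 14.53, 15.42 and 15.50 in the double mutant. There the 3 single-mutant arrays lay below all others, and Hoxa10 fell by 0.97 (adjusted p = 0.0400, limma), called in 12 of 21 alternatives. That call was lost without any 1 array of either mutant, at -1.03 to -0.91 and adjusted p of 0.0597 to 0.112 (limma). The 2 probe sets of Hoxa10 thus differ in the call and share the sign.

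Hoxa11, the neighbour of Hoxa10, read 272.06, 343.55 and 183.39 in control, 185.40, 191.82 and 173.69 in the single mutant and 308.94, 355.29 and 236.31 in the double mutant. The double-mutant arrays lay above the single-mutant arrays, and control replicate 3 lay among the latter. Its log2 fold changes were -0.49 in the single mutant (adjusted p = 0.263, limma), 0.20 in the double mutant (adjusted p = 0.910, limma) and 0.69 between the 2 mutants (SE 0.22, adjusted p = 0.0896, limma). Without control replicate 2 or 3 this last difference was called, at adjusted p of 0.0497 and 0.0297 (limma). In all, it was called in 7 of 23 alternatives. Antisense transcripts of the clusters were looked at after their values had been seen. Hoxa11os, transcribed from the opposite strand of Hoxa11, differed by -0.68 in the single mutant (adjusted p = 0.319, limma) and Hoxd3os1 by -0.57 (adjusted p = 0.210, limma). Hoxa13, which marks the vagina and cervix, stayed between 3.13 and 4.25 on all 9 arrays, below the median intensity. Hoxa7 had log2 fold changes of -0.34 and -0.02 against control, and Hoxa5 of 0.11 and 0.28, none called. Another probe set of Hoxa5 gave -0.23 in the single mutant and 0.56 in the double mutant against control. Between the mutants it gave 0.79 (adjusted p = 0.0593, limma), not called, with all double-mutant arrays above all single-mutant arrays. Over the 5 Hoxa genes at or above the median intensity, the median log2 fold change was -0.42 in the single mutant, with 4 of 5 below 0, and 0.13 in the double mutant. Hoxa2, Hoxa3 and Hoxa4 lay below the median intensity, from 3.02 to 6.26 on all arrays.

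Of the 8 measured Hoxd genes, only Hoxd9 was called in the single mutant. Hoxd9, like Hoxa9 a posterior gene, read 434.41, 417.66 and 433.08 in control, 270.76, 274.92 and 270.01 in the single mutant and 389.59, 529.43 and 412.26 in the double mutant. The single-mutant arrays lay within a few units of each other and far below the rest. Hoxd9 fell by 0.66 on the log2 scale in the single mutant (SE 0.12, adjusted p = 0.0202, limma), a 1.58-fold decrease, and rose by 0.69 from the single mutant to the double mutant (adjusted p = 0.00919, limma). Against control the double mutant differed by 0.04 (95% interval -0.22 to 0.30), which leaves out a change of 1.5-fold in either direction. The first call was lost without control replicate 2 (-0.67, adjusted p = 0.0575, limma) or the library labelled Mig-6 d/d 1 (-0.65, adjusted p = 0.0681) or 3 (-0.65, adjusted p = 0.0694). The second was lost without double-mutant replicate 2, where the difference of 0.56 was under the fold limit.

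Hoxd10 read 434.03, 349.81 and 384.02 in control, 233.40, 297.46 and 235.20 in the single mutant and 327.22, 447.40 and 328.71 in the double mutant. It too had its 3 single-mutant arrays below all others, but its log2 fold change of -0.61 missed the threshold (SE 0.15, adjusted p = 0.0592, limma), and was called in 9 of 23 alternatives. Between the knockouts it differed by 0.52 (adjusted p = 0.0743, limma). Hoxd8 read 151.01 to 190.13 in control, 100.70 to 144.43 in the single mutant and 130.38 to 167.87 in the double mutant, a log2 fold change of -0.41 in the single mutant (adjusted p = 0.192, limma). Hoxd3 and Hoxd11 both had log2 fold changes of -0.53 in the single mutant (adjusted p = 0.227 and 0.267, limma), with arrays that overlapped those of control. A probe set that the annotation assigns to Hoxd4 and Hoxd3 together read 42.70, 55.02 and 59.08 in control, 26.95, 33.96 and 32.27 in the single mutant and 49.96, 59.38 and 49.31 in the double mutant. It fell by 0.74 (adjusted p = 0.0279, limma) and rose by 0.77 (adjusted p = 0.0145, limma) to the double mutant, in 15 and 18 of 21 alternatives, and the gene behind the signal cannot be told from it. The first call was lost without control replicate 2 or 3 or on leaving out the library labelled Mig-6 d/d 1 or 3 (-0.78 to -0.65, adjusted p of 0.0598 to 0.0938, limma), the second without the first of these libraries or double-mutant replicate 2 (0.67 and 0.68, adjusted p of 0.0563 and 0.0588, limma). The other probe set of this pair of genes differed by -0.42 (adjusted p = 0.279, limma) and 0.47 (adjusted p = 0.189, limma), with no call. All 5 Hoxd genes at or above the median intensity, which follow each other along the cluster on chromosome 2 apart from Hoxd4, were below 0 in the single mutant, with a median of -0.53, and near 0 in the double mutant, with a median of -0.04. Of all genes, 44.8% were above 0 in the single mutant. Hoxd1, Hoxd12 and Hoxd13, at the ends of the cluster, read 2.69 to 5.80 on all arrays, with log2 fold changes in the single mutant of 0.08, -0.06 and 0.29.

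Of the 9 measured Hoxb genes on chromosome 11, only Hoxb6 was called in the single mutant, and 5 had log2 fold changes above 0 and 4 below. Hoxb6 read 101.44, 86.75 and 138.90 in control, 194.96, 163.79 and 206.09 in the single mutant and 89.39, 92.96 and 114.24 in the double mutant. The 3 single-mutant arrays lay above all others. Hoxb6 rose by 0.81 on the log2 scale in the single mutant (SE 0.18, adjusted p = 0.0375, limma), a 1.75-fold increase, and fell by 0.93 to the double mutant (adjusted p = 0.0140, limma), where it differed from control by -0.12 (95% interval -0.51 to 0.27). The first call was lost without control replicate 1 or 2, the library labelled Mig-6 d/d 1 or 3, or double-mutant replicate 1 or 2, at 0.66 to 0.81 and adjusted p of 0.0534 to 0.120 (limma). The second was lost leaving out the library labelled Mig-6 d/d 1 or 3 or double-mutant replicate 1 or 2, at -0.90 to -0.86 and adjusted p of 0.0530 to 0.0595 (limma).

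Hoxb2 read 60.76, 72.30 and 73.74 in control, 101.96, 101.43 and 102.21 in the single mutant and 76.02, 53.09 and 64.24 in the double mutant. The single-mutant arrays stood above the rest with almost no spread. The difference of 0.57 from control had an adjusted p of 0.0494 (limma) but at 1.48-fold was under the fold limit. From the single mutant to the double mutant Hoxb2 fell by 0.68 (SE 0.14, adjusted p = 0.0178, limma), a call lost leaving out the library labelled Mig-6 d/d 1 (-0.68, adjusted p = 0.0598) or 3 (-0.67, adjusted p = 0.0569) or double-mutant replicate 2 (-0.54, adjusted p = 0.0574). Hoxb3 read 55.72, 30.10 and 69.75 in control, 95.01, 85.43 and 88.01 in the single mutant and 34.11, 53.09 and 50.46 in the double mutant, again with the single-mutant arrays on top. Its differences were larger but its control arrays were spread, and neither 0.87 in the single mutant (adjusted p = 0.117, limma) nor -0.99 between the mutants (adjusted p = 0.0601, limma) was called. Without control replicate 2 or 3 the latter was called, at adjusted p of 0.0113 and 0.0331 (limma). Hoxb4 read 16.98 to 24.90 in control, 24.70 to 31.39 in the single mutant and 17.62 to 24.21 in the double mutant, with differences of 0.52 and -0.46 that were not called. Hoxb5 differed by -0.57 between the mutants (adjusted p = 0.0307, limma), under the fold limit at 1.48-fold.

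A probe set assigned to Hoxb8 and Hoxb7 together read 45.20, 33.26 and 51.92 in control, 80.59, 71.58 and 80.34 in the single mutant and 39.01, 47.38 and 42.96 in the double mutant. It rose by 0.86 (adjusted p = 0.0216, limma) and fell by 0.85 (adjusted p = 0.0127, limma) to the double mutant, in 16 and 17 of 20 alternatives. The first call was lost on leaving out the library labelled Mig-6 d/d 1 or 3 (0.83 each, adjusted p of 0.0760 and 0.0738, limma), the second without library 1 of these or double-mutant replicate 1 (-0.82 and -0.78, adjusted p of 0.0507 and 0.0549, limma). Hoxb7's own probe set stayed between 4.06 and 5.02 on all arrays. The 5 Hoxb genes from Hoxb2 to Hoxb6, which follow each other along the cluster, were all above 0 in the single mutant, where 44.8% of all genes were. The sixth Hoxb gene at or above the median intensity, Hoxb9, had -0.14. The median of these 6 was 0.54 in the single mutant and -0.12 in the double mutant. Hoxb1 and Hoxb13 were below the median intensity on all arrays. Hoxb5os, antisense to Hoxb5, had a log2 fold change of 0.15.

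**Figure D2:**
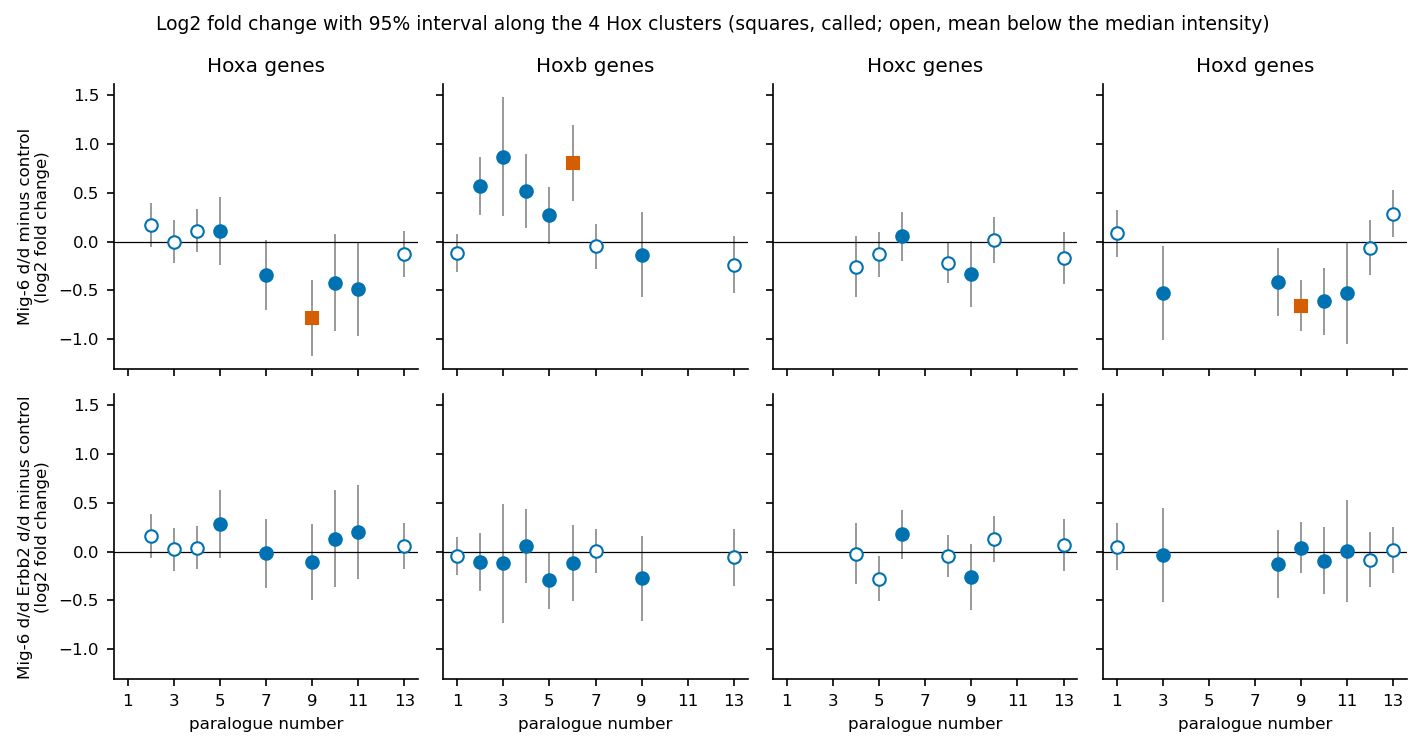
Log2 fold change with its 95% interval (y axis) against paralogue number (x axis) for the Hox genes of each cluster, the single mutant against control above and the double mutant against control below. Filled orange squares are called, filled circles are not called and open circles have a mean below the median intensity. In the upper row Hoxb2 to Hoxb6 lie above 0 and Hoxd3 and Hoxd8 to Hoxd11 below it, and in the lower row all points lie within 0.30 of 0.

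The Hoxc genes on chromosome 15 were mostly dim. Hoxc6 and Hoxc9 were the 2 of 7 at or above the median intensity, with log2 fold changes of 0.05 and -0.33 in the single mutant and 0.18 and -0.26 in the double mutant, none called. Hoxc4, Hoxc5, Hoxc8, Hoxc10 and Hoxc13 read 3.31 to 6.83 on all arrays. At each member's brightest probe set, Hoxc5 had the smallest p of any member in the double mutant against control. Its log2 fold change was -0.28 (unadjusted p = 0.0245, adjusted p = 0.533, limma), at a level under the median intensity. The further probe set of Hoxa9 had a smaller p (unadjusted p = 0.00192, limma).

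The Msx genes, whose products act in the receptive epithelium, were not called in any comparison with all 9 arrays. Msx1 read 238.64, 235.28 and 383.88 in control, 210.71, 335.99 and 208.41 in the single mutant and 183.89, 258.12 and 172.19 in the double mutant. The 3 groups overlapped. Its log2 fold changes were -0.18 in the single mutant (95% interval -0.73 to 0.37), -0.47 in the double mutant (-1.02 to 0.08) and -0.28 between the mutants, so that a change of 1.5-fold lies within each interval. A second probe set of Msx1 gave -0.11, -0.16 and -0.05.

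Msx2 read 22.84, 22.92 and 88.17 in control, 89.41, 61.37 and 59.86 in the single mutant and 17.08, 23.07 and 25.51 in the double mutant. The single-mutant arrays were high and the double-mutant arrays low, while control replicate 3 stood with the former and the other two control arrays with the latter. The log2 fold change was 0.94 in the single mutant (SE 0.45, adjusted p = 0.305, limma), -0.73 in the double mutant (adjusted p = 0.790, limma) and -1.68 between the mutants (adjusted p = 0.0522, limma). Without control replicate 3, the difference was 1.59 in the single mutant (adjusted p = 0.00813, limma) and -0.08 in the double mutant (adjusted p = 0.981, limma), and that of -1.68 between the mutants had an adjusted p of 0.00187 (limma). Between the mutants Msx2 was called lower in 11 of 23 alternatives, among them those without control replicate 1 or 2 (adjusted p of 0.0439 and 0.0430, limma), but not without any 1 array of either mutant (-1.80 to -1.49, adjusted p of 0.0938 to 0.168, limma). Without control replicate 1 or 2 the difference of the single mutant from control was 0.62 in either case. Control replicate 3 also had the highest summed intensity of the epithelium markers among the control arrays, 5567.7 beside 3324.1 and 3082.6. The part of this in the reading of Msx2 was not tested. A further probe set of Msx2 was near 4 on average in all groups (means of 4.24, 4.28 and 3.93), below the median intensity.

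**Figure D3:**
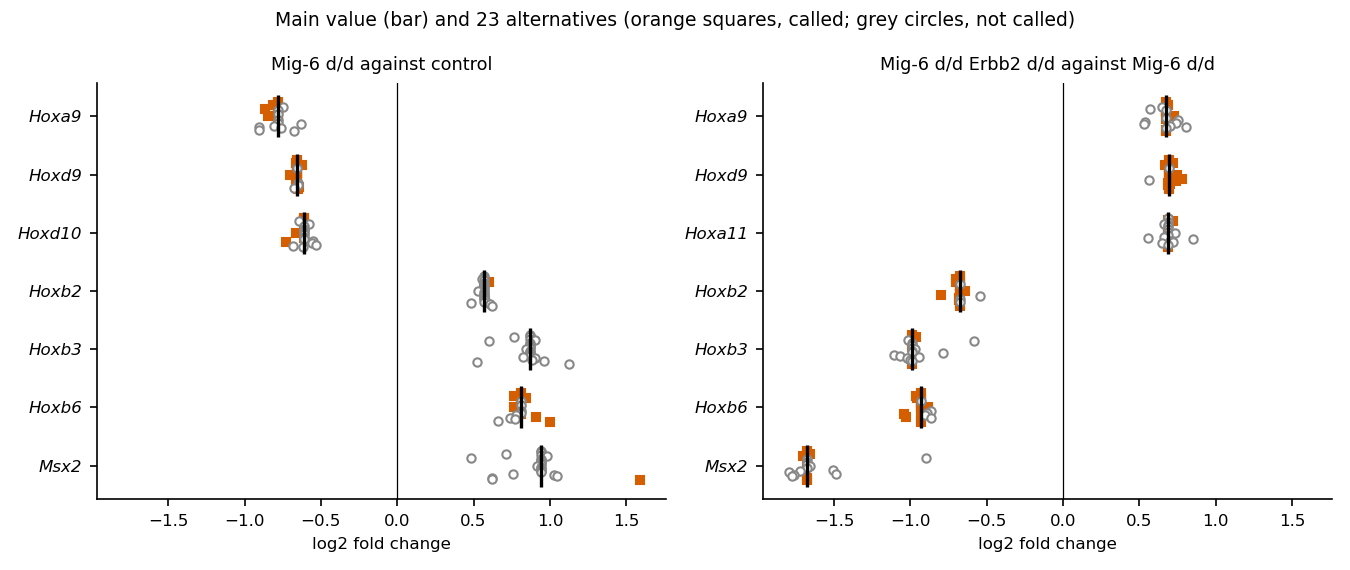
Log2 fold change (x axis) of 7 members in the single mutant against control (left) and in the double mutant against the single mutant (right). The black bar is the value as reported, orange squares are alternatives in which the gene was called and grey circles alternatives in which it was not, and no point crosses 0. The square of Msx2 at 1.59 is the fit without control replicate 3.

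In the double mutant against control, no member was called in either direction in limma, where 0.209% of all genes were called higher and 0.198% lower. At each member's brightest probe set, Hoxc5 and Hoxb5, both lower, were the 2 members at an unadjusted p under 0.05 in limma. Other probe sets under 0.05 were those of Hoxa9, lower, and of Hoxa5 and Hoxa3, higher (unadjusted p = 0.00192, 0.0287 and 0.0403, limma). That of Hoxa3 was below the median intensity. The methods' t-test, unadjusted and with the fold limit, called 0 members. The 95% interval lay within 1.5-fold in both directions for 26 of the 35 members (74.3%), beside 80% of all genes, and for 11 of the 20 members at or above the median intensity. In the single mutant against control the same held for 19 of 35 (54.3%), beside 67.2% of all genes. The interval in the double mutant reached past 1.5-fold for Hoxa5, Hoxa10, Hoxa11, Hoxb3, Hoxb5, Hoxb9, Hoxc9 and both Msx genes, so that a change of that size was not left out for these genes.

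Genes that act with HOX proteins or on Hox clusters, and related genes, were read from fixed lists. The TALE list holds homeodomain proteins of the PBX, MEIS, PKNOX and TGIF families, of which PBX and MEIS proteins bind DNA together with HOX proteins. Of the 10 measured of 11, Meis2 fell from a mean of 563 in control to 278 in the single mutant (log2 fold change -1.02, SE 0.13, adjusted p = 0.00903, limma) and was at 478 in the double mutant, a rise of 0.78 from the single mutant (adjusted p = 0.00967, limma). Both differences were called in 22 of 23 alternatives, all but the methods' t-test after adjustment. None of the other TALE genes was called, and the median of the list was -0.27 in the single mutant, with 9 of 10 below 0, and -0.06 in the double mutant. The Polycomb genes, which keep Hox clusters silent, had 22 measured of 23 and no call in any comparison in limma, with 3 higher and 3 lower at an unadjusted p under 0.05 in the single mutant and a median of 0.02. The smallest p-values there were those of Eed, at 0.39 (adjusted p = 0.0810, limma), and Phc1, at -0.31 (adjusted p = 0.104, limma). Between the mutants 3 Polycomb genes were higher and 6 lower at an unadjusted p under 0.05 (limma). Phc1 differed by 0.51 between the mutants (adjusted p = 0.0125, limma), under the fold limit. The 12 Trithorax genes, which keep them active, had no call either, with 1 higher and 2 lower at an unadjusted p under 0.05 in the single mutant and a median of -0.12. Dpy30, a subunit of the MLL complexes, differed by 0.41 (adjusted p = 0.0391, limma), under the fold limit. Between the mutants it differed by -0.44 (adjusted p = 0.0189, limma), also under the fold limit.

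Homeobox genes outside the clusters also moved in both directions. Of 30 measured of 36, 2 rose and 4 fell in the single mutant, with a median of -0.12. Six4 rose by 1.41 (adjusted p = 0.0174, limma) and Pax8, a gene of Müllerian epithelium, by 0.84 (adjusted p = 0.0344, limma). Zeb1, a repressor of epithelial genes, fell by 0.74 (adjusted p = 0.0149, limma) and Six5 by 0.70 (adjusted p = 0.0162, limma). From the single mutant to the double mutant 3 rose and 4 fell. Dlx6 and Dlx5, neighbouring genes known in uterine gland formation, fell by 2.01 and 1.57 (adjusted p = 0.00542 and 0.0247, limma), Zeb1 rose by 0.82 (adjusted p = 0.00550, limma) and Six5 by 0.71 (adjusted p = 0.00874, limma). In the single mutant against control, Dlx5 and Dlx6 had log2 fold changes of 1.28 and 1.13 (adjusted p = 0.0731 and 0.0704, limma). None of the 30 was called in the double mutant against control, where 4 were lower and none higher at an unadjusted p under 0.05. In the single mutant, Pax8 lost its call without any 1 of 7 arrays (0.70 to 0.96, adjusted p up to 0.111), Six4 without control replicate 2 or the library labelled Mig-6 d/d 3 (1.19 to 1.24, up to 0.0626), Six5 without control replicate 2 or the library labelled Mig-6 d/d 1 (-0.67 to -0.59, up to 0.0630) and Zeb1 without that library (-0.72, adjusted p = 0.0589, limma). Between the mutants Dlx5 lost its call without any 1 of 4 arrays (-1.56 to -1.39, adjusted p up to 0.0970, limma). Zeb1 moved to -0.32 with the mean over its probe sets.

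Among 21 measured of 22 genes of uterine receptivity, which hold progesterone and implantation regulators, 1 rose and 1 fell in the single mutant, with a median of -0.11. Nr2f2, a stromal regulator downstream of progesterone and Indian hedgehog, fell by 0.77 (adjusted p = 0.0137, limma) and rose by 0.76 from there to the double mutant (adjusted p = 0.00796, limma), each in 21 of 23 alternatives. Fgf18, a growth factor gene of the stroma that HAND2 is known to hold down, rose by 0.91 (adjusted p = 0.0364, limma, lost without any array but control replicate 3, at adjusted p up to 0.118) and fell by 1.33 to the double mutant (adjusted p = 0.00523, limma, in 22 of 23). Wnt7a, an epithelial Wnt gene, fell by 1.85 between the mutants (adjusted p = 0.0499, limma), a call made in 11 of 23 alternatives, lost without any 1 of 7 arrays, at adjusted p up to 0.152, and lost with the mean over its probe sets, at -0.59 (adjusted p = 0.0542, limma). Pgr, the progesterone receptor gene, which drives the cre allele, had means of 1261 in control, 753 in the single mutant and 835 in the double mutant (log2 fold changes -0.74 and -0.58 against control, adjusted p = 0.0734 and 0.448, limma). Only the mutant genotypes include this cre allele, so its part in the Pgr readings cannot be told apart from that of Mig-6 loss. None of the list was called in the double mutant against control, where 3 were lower and none higher at an unadjusted p under 0.05.

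Markers of the cell types of the uterus moved with the same arrays. Of 13 measured epithelium markers of 14, 7 rose in the single mutant and all 13 were above 0, with a median of 1.5, and 9 fell to the double mutant. Their summed intensity was 3083 to 5568 in control, 8114 to 12506 in the single mutant and 2818 to 4083 in the double mutant. Cldn7 rose by 2.15 (adjusted p = 0.00819, limma) and Krt7 by 2.61 (adjusted p = 0.0442, limma). Cldn7 was called without each array in turn, whereas Krt7 lost its call without any 1 of 6 arrays, at adjusted p up to 0.142. All 12 stroma markers (median -0.52, Dpt and Vim called lower), all 11 smooth muscle markers (median -0.64, Synpo2 called lower) and all 9 endothelium markers (median -0.72, Tek and Cdh5 called lower) were below 0 in the single mutant. Each of these called markers lost its call without control replicate 2 and without some other arrays, at adjusted p up to 0.116 (limma). The summed intensity of the stroma markers was 27955 to 31720 in control, 22547 to 27124 in the single mutant and 30752 to 33268 in the double mutant, and neither the smooth muscle nor the endothelium sums of the single mutant overlapped those of the other groups. The 2 members called lower in the single mutant, Hoxa9 and Hoxd9, had the sign of the medians of the stroma, muscle and endothelium markers, and the 1 called higher, Hoxb6, that of the epithelium markers. These medians lie on both sides of 0, so a member called in either direction shares a sign with some list, and nothing follows from the match. The part of a change in cell makeup in the readings of the Hox and Msx genes was not tested. The 7 leukocyte markers had a median of -0.05, with Csf1r called lower, a call lost without control replicate 2 or any single-mutant array, at adjusted p up to 0.108 (limma).

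Markers of neighbouring organs bear on Hox genes in particular, since these differ along the tract. The 9 measured cervix and vagina markers of 10 had no call in any comparison in limma, with 2 lower at an unadjusted p under 0.05 in the single mutant, and their summed intensity was 73.9 to 93.6 over all arrays. Krt5 and Trp63, which define stratified epithelium, were near or below the median intensity, with group means of 7.22 to 8.17 and 4.40 to 5.36, as was Hoxa13. The 8 measured ovary and oviduct markers of 9 had no call against control in either mutant, with 1 lower in the single mutant and 1 higher in the double mutant at an unadjusted p under 0.05, and Inha rose by 0.78 between the mutants (adjusted p = 0.0401, limma). That call was lost without any 1 array of either mutant, at 0.61 to 0.90 and adjusted p up to 0.134 (limma). Their summed intensity was 73.6 to 85.4 in control, 69.2 to 124 in the single mutant and 114 to 132 in the double mutant, and Ovgp1, which marks the oviduct, had a mean of 20.2 in control, 36.3 in the single mutant and 62.3 in the double mutant (log2 fold change 1.85 against control, adjusted p = 0.442, limma). Whether pieces of oviduct bear on the Hox readings was not tested.

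**Figure D4:**
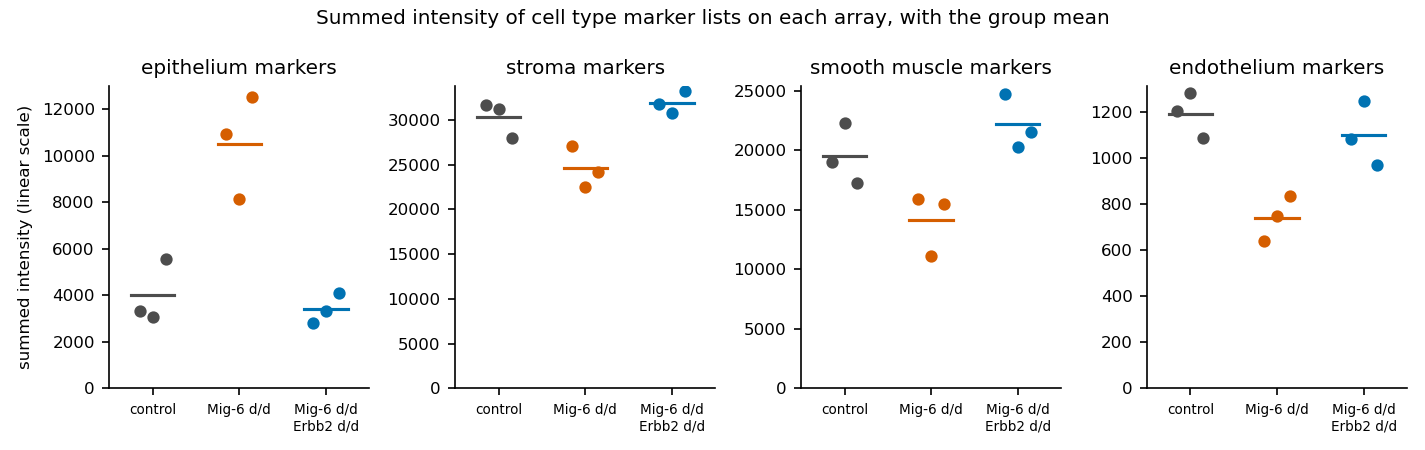
Summed intensity (linear scale, y axis from 0) of the epithelium, stroma, smooth muscle and endothelium markers on each of the 9 arrays by group (x axis), where points are arrays and lines group means. The single-mutant arrays lie above all others for epithelium and below all others for stroma, smooth muscle and endothelium.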

How the data were processed

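RNA of whole uteri was hybridised by the authors to 9 Affymetrix mouse arrays, 3 per group. The authors deposited intensities on a linear scale (2.11 to 11548.76), after robust multi-array averaging (RMA, in the submitters' processing notes without a version) and quantile normalization in Bioconductor. Log2 values were computed here. Neither scanner files nor detection calls were used here, so signal over background was not judged. Precision is limited by having 3 arrays per group.

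Probe sets were named from the platform annotation (34945 with 1 symbol, 932 with several, 9160 unnamed here). Symbols were looked up in a RefSeq gene table (GRCm38.p6), which held 34741 of them and changed 0 symbols. Gene order within clusters came from the same table and start regions from a RefSeq promoter table. Tests used limma 3.58.1 (lmFit, eBayes, with statmod 1.5.0) in R 4.3.3, adjusted by Benjamini-Hochberg over 45037 probe sets, and calling was tested on simulated data. For the arrays the methods give a fold limit and name no test. Their two-tailed unpaired t-test, given for data with a single pair of groups, was also run here, as the methods' t-test. For more groups the methods give an analysis of variance, which was not run. Fold changes in the paper's tables were not used.

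The members and the lists (TALE cofactors, Polycomb, Trithorax, other homeobox and uterine receptivity genes, and markers of epithelium, stroma, smooth muscle, endothelium, leukocytes, ovary and oviduct, and cervix and vagina) were chosen with earlier results of these data known. All members were accounted for. Described singly were members called at any probe set, Msx1, Msx2, Hoxa9, Hoxa10, Hoxa11 and Hoxa13, the 12 members with a mean at least 2 log2 units above the median of all values, the 2 uncalled members with the smallest p per direction and comparison, up to 4 genes of a list, and Errfi1 and Erbb2. Pgr, Krt5 and Trp63 and the antisense transcripts were added outside this rule, after their values were seen.

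The 23 alternatives changed the values (a repeated quantile normalization, or arrays centred), the features (dim or cross-hybridising probe sets left out, 1 probe set per gene, the mean over its probe sets), the model (trend and robust, weighted arrays, a block on replicate number, only the 6 arrays at issue), the arrays (each removed in turn), the thresholds, or the test (the methods' t-test). Python 3.11.15 with matplotlib 3.10.9 drew the figures.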

Additional observations from a re-analysis of the deposited data

How the results depend on the processing

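No called member changed sign in any of the 23 alternatives, and the members called in the double mutant against control stayed at 0 in each. In the single mutant against control, the 1 member called higher became 2 with each array centred on its median or with no fold limit, and 0 with only the 6 arrays compared or with the methods' t-test after adjustment. The 2 called lower became 3, with Hoxd10 added, with dim probe sets left out, quantile normalization again, trended and robust variance, an adjusted p under 0.10, the methods' t-test unadjusted, 1 probe set per gene or each gene's probe sets averaged, 1 with centring or with only the 6 arrays compared, and 0 with the methods' t-test after adjustment. From the single mutant to the double mutant, the 2 called higher became 1 with centring and 0 with the methods' t-test after adjustment. With Hoxa11 added, they became 3 with only the 6 arrays compared, array weights, an adjusted p under 0.10 or the methods' t-test unadjusted. The 2 called lower became 4 with dim probe sets left out, centring, only the 6 arrays compared, array weights, an adjusted p under 0.10, the methods' t-test unadjusted or 1 probe set per gene, and 0 with the methods' t-test after adjustment. Leaving out 1 array at a time gave 0 to 2 higher and 0 to 3 lower in the single mutant against control, and 0 to 3 higher and 0 to 4 lower between the mutants. No member was called in the single mutant against control when control replicate 2 or the library labelled Mig-6 d/d 1 or 3 was left out, and none between the mutants when double-mutant replicate 2 was. The causes were not tested.

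Of the members not called, 8 of 32 changed sign in some alternative in the single mutant against control, 19 of 35 in the double mutant against control and 7 of 31 between the mutants, most of them near 0, and 3, 0 and 5 were called in some alternative. Of the 55 calls of listed genes, 18 were kept without each array in turn and none changed sign.

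Same-numbered arrays showed no clear tendency to deviate together. Of 9 same-numbered pairs 3 correlated above 0.1 (range -0.13 to 0.20), and 5 of 9 arrays correlated best with their own number. Differently numbered pairs ranged from -0.30 to 0.33, so these values do not settle whether the numbers pair the arrays. With the replicate number as a block the counts were 1 higher and 2 lower in the single mutant, 0 and 0 in the double mutant against control, and 2 higher and 3 lower between the mutants, where Hoxa9 lost its call (adjusted p = 0.0563) and Hoxa11 was called (adjusted p = 0.0254, limma).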
